A study of Mus musculus with 4 samples.

Results

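The 10 genes of Wnt and R-spondin signalling chosen by symbol were followed through the cells of the proximal mouse testis: the ligands Wnt4, Wnt5a and Wnt6, the R-spondins Rspo1, Rspo2 and Rspo3, the R-spondin receptors Lgr4 and Lgr5, the Wnt receptor Fzd1 and the E3 ubiquitin ligase Znrf3. They are 10 of the 31053 features listed in each of 4 single-cell RNA (scRNA-seq) libraries, and all 10 were found. The tissue was the rete testis (RT), the epithelial network that collects sperm from the seminiferous tubules, with the adjacent ends of the tubules, where specialised Sertoli cells build the Sertoli valve (SV). It was dissected from C57BL/6 mice at postnatal day 14, and 3 pups were pooled for each library. Of the libraries, 2 were controls and 2 were Sox17-cKO. The labels give the Sox17-cKO genotype as SF1Cre:Sox17flox/flox and that of the controls as SF1Cre, whereas the methods of the study describe the controls as Sox17flox/flox littermates, and these sources do not settle which allele the controls carry. SF1 (Nr5a1) Cre is active in the somatic lineage of the gonad. The fraction rich in interstitial cells was discarded during dissociation, so the interstitial classes below are what remained of them.

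Wnt proteins bind Frizzled receptors with a co-receptor of the Lrp family, and this stabilises beta-catenin, which turns on target genes with TCF factors. Znrf3 marks Frizzled receptors for removal from the cell surface, and R-spondins, held by Lgr receptors, draw Znrf3 away and so raise the response to Wnt. In the gonad, Rspo1 and Wnt4 are known for their role in ovary development, and Wnt signalling in the testis is kept low during sex determination.

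The genes lie on separate chromosomes except for 2 pairs (GENCODE annotation of GRCm38). Rspo1 occupies chr4:124986430-125009099 on the plus strand and Wnt4 chr4:137277489-137299726 on the plus strand. Wnt6 lies at chr1:74771892-74785322, Lgr4 at chr2:109917647-110014257, Fzd1 at chr5:4753839-4758035, Rspo3 at chr10:29452416-29535867, Lgr5 at chr10:115450311-115587780, Znrf3 at chr11:5276324-5444847, Wnt5a at chr14:28504750-28527448 and Rspo2 at chr15:43020794-43170826. Each is protein coding. The 3′ library counts tags near the end of the transcript, so the values do not scale with length and do not tell isoforms apart. Rspo3 shares its strand with 1 overlapping gene model, Gm20276, and its counts are uncertain to that extent.

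Promoters were in the RefSeq table for 5 of the 10 genes (GRCm38.p6). The upstream sequences of Rspo1 and Wnt4 are printed because the RT and SV results turn on these 2 genes. Both are on the plus strand, read 5′ to 3′ and end at the base before the annotated gene start. The Rspo1 stretch is chr4:124986180-124986429, of 250 bases and 66.8% G and C. The Wnt4 stretch is chr4:137277385-137277488, of 104 bases and 83.7% G and C.
Rspo1: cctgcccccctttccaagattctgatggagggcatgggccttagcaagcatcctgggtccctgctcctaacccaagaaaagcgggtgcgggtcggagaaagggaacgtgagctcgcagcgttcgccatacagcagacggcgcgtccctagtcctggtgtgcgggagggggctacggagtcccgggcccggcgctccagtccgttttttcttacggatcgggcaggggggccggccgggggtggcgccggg
Wnt4: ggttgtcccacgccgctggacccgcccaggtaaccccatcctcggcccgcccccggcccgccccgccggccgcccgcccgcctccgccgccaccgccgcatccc
Capitals were reserved for matches to the SOX core ACAAT and the TCF/LEF core CTTTGA on either strand, and neither stretch holds one. Over the 250 bases before the RefSeq start, ACAAT or its reverse complement was found in 27.7% of 32851 mouse promoter windows and CTTTGA in 13.8%. Wnt6 and Lgr4 had no match either, and Fzd1 had 1 match to the TCF/LEF core and none to the SOX core. These are matches of letters in a short window and do not show a binding site or its absence.

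The libraries held 89969877 to 107203219 unique molecules (UMIs) over 9388 to 13364 barcodes. Cells with 1000 to 4500 detected genes were kept, which left 5174 to 6135 cells per library and 22567 in all. The 4 libraries shared 20 to 43 barcodes per pair. Cells were clustered without the Wnt genes and Sox17 and named "X-like" from marker genes, which gave 12 named classes. Clusters whose cells had a median of over 20% mitochondrial UMIs, a cycling stromal cluster and 2 groups of Sertoli-like cells led by germ cell genes stayed unnamed. The 2 high-mitochondrial clusters, of 1431 and 837 cells, came mostly from the replicate 1 libraries, and 241 of the 246 cells of 1 germ-led group came from Sox17-cKO replicate 1. None of them enters a comparison. RT-like cells numbered 36 and 73 in the 2 control libraries and 33 and 85 in the Sox17-cKO libraries. SV Sertoli-like cells numbered 125, 56, 60 and 130 in the same order. There were 4628 other Sertoli-like cells. Levels are UMIs of a gene per 1000000 UMIs of the class in that library (CPM), and ± is the SD over the 4 libraries for a level and the SE for a log2 difference. Comparisons between classes and genotypes use edgeR's quasi-likelihood test on the summed UMIs of each class and library, and p-values were adjusted by Benjamini-Hochberg across every gene in the fit.

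The class names were checked against their defining markers. In RT-like cells the summed level of the 9 RT markers was 4550 to 5316 CPM. The 13 Sertoli markers were not absent there and summed to 1735 to 2416 CPM, against 11850 to 12690 CPM in SV Sertoli-like cells. Of these 13, only Amh, a Sertoli hormone, was at 0 in RT-like cells of all 4 libraries. The SV Sertoli-like cells carried Nes at 37.9 to 91.6 CPM against 0.749 to 2.18 CPM in other Sertoli-like cells. However, Cyp26a1, which encodes a retinoic acid degrading enzyme and is on the SV list, was 8.75 to 40.9 CPM in SV Sertoli-like and 12.4 to 26.6 CPM in other Sertoli-like cells, ranges that overlap. Several SV markers were chosen by the study on these libraries. The early response gene Cyr61 led the SV Sertoli-like cells, and Fos, another early response gene that is not on the list, was 1509 to 1700 CPM in SV Sertoli-like cells and 131 to 269 CPM in other Sertoli-like cells. In RT-like cells Fos was 3419 to 5832 CPM. The part of this difference in the class results below was not tested.

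Sources of the ligands differed by gene. Wnt6 was highest in Leydig-like cells, the androgen-producing cells of the interstitium, at 354.3 and 575.9 CPM in the control and 345.3 and 522.0 CPM in the Sox17-cKO libraries (449 ± 117). Its next level, in stromal-like cells, was 142 ± 61.25 CPM and overlapped no Leydig-like value. Other Sertoli-like cells followed with 87.4 CPM, and their range overlapped that of the stromal-like cells. By UMIs, other Sertoli-like cells held the largest share of Wnt6, 2614 of the 7252 in named classes (36.05%). RT-like cells had 2, 0, 2 and 2 Wnt6 UMIs, each under the 3 UMIs that a count of 0 allows.

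Wnt5a, a ligand known mostly for signalling without beta-catenin, was highest in peritubular myoid-like cells, the contractile sheath of the tubule. Its 4 values there lay close together, at 142.6, 130.4, 139.8 and 131.4 CPM. Stromal-like cells (95.5 ± 10.5 CPM) and fibroblast-like cells (85.5 ± 4.45 CPM) came next and overlapped each other. RT-like cells carried 44.2 ± 10.2 CPM, below every Leydig-like value and above every SV Sertoli-like value. The peritubular myoid-like cluster had none of its 6 list markers among its 10 leading genes, which included Tnnt2 and Cyp26b1, and was named by its marker score.

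Wnt4 was highest in 3 classes whose ranges overlapped. Fibroblast-like cells gave 65.1, 131.8, 133.2 and 213.7 CPM and held 69.8% of the 4619 Wnt4 UMIs. SV Sertoli-like cells gave 38.3, 60.2, 209.3 and 79.8 CPM. Stromal-like cells gave 61.4, 66.5, 57.2 and 49.8 CPM from 505 UMIs, against 236 UMIs in SV Sertoli-like cells. Fibroblast-like cells were above SV Sertoli-like cells in 3 of the 4 libraries, and SV Sertoli-like cells above stromal-like cells in 2, both of them Sox17-cKO. In other Sertoli-like cells Wnt4 was 2.24 ± 1.13 CPM, near the macrophage-like level of 1.51 CPM, a class not known to make it. Endothelial-like cells had no Wnt4 UMI in 71 cells.

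**Figure D1:**
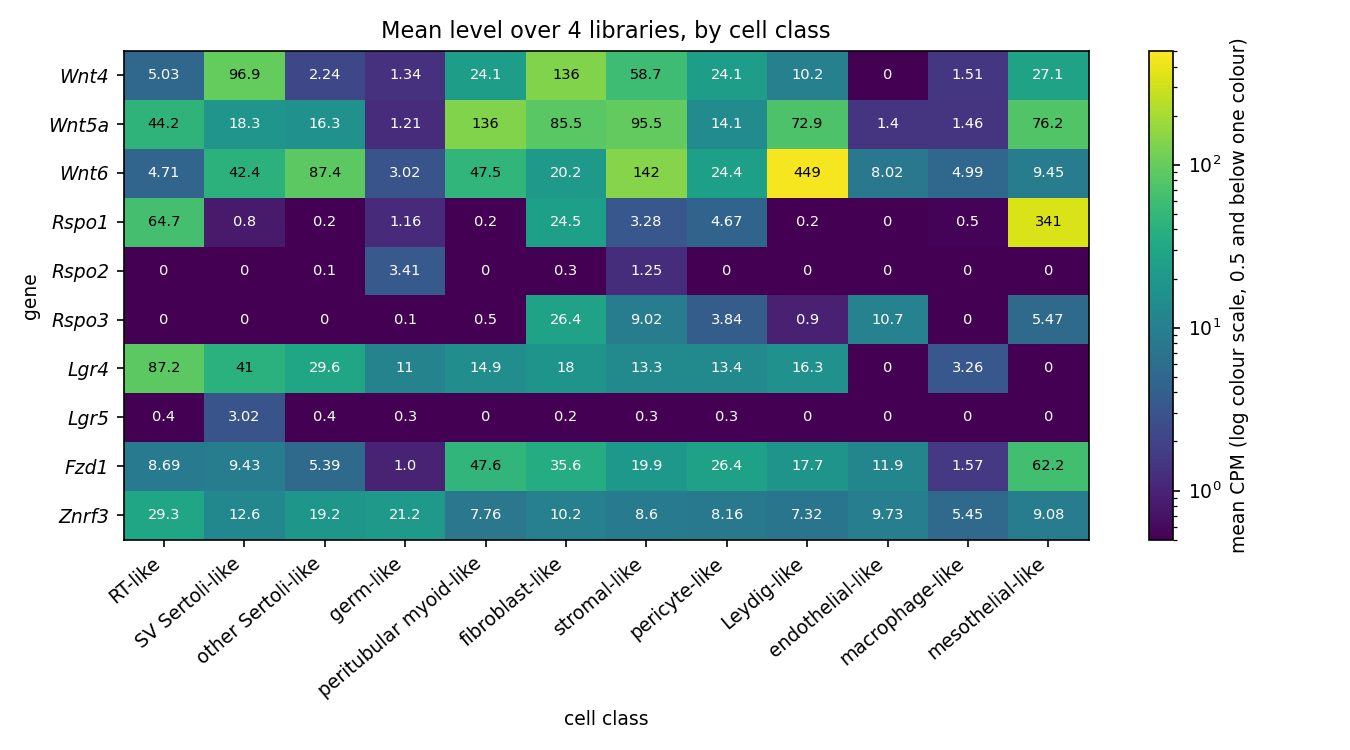
Mean level over the 4 libraries (CPM, log colour scale, value printed in each cell) of the 10 genes (rows) in the 12 cell classes (columns). Wnt6 peaked in Leydig-like cells at 449 CPM, Rspo1 in mesothelial-like and RT-like cells at 341 and 64.7 CPM, Rspo3 in fibroblast-like cells at 26.4 CPM and Lgr4 in RT-like cells at 87.2 CPM.

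The R-spondins differed in where they were found. Rspo1 had a UMI in 11 of the 12 classes, Rspo3 in 8 and Rspo2 in 4. Rspo1 was highest in the 17 mesothelial-like cells, which form the covering of the testis, with 341 CPM from 51 UMIs. RT-like cells came next, at 132.4 and 103.9 CPM in the control and 16.5 and 6.04 CPM in the Sox17-cKO libraries. Fibroblast-like cells followed with 21.1, 28.2, 30.4 and 18.2 CPM and held 66.1% of the 824 Rspo1 UMIs, since they were many. Both control RT-like values stood above every fibroblast-like value and both Sox17-cKO values below. Stromal-like cells had 3.28 CPM from 29 UMIs and germ-like cells 1.16 CPM from 73. SV Sertoli-like cells held 2 Rspo1 UMIs in all and other Sertoli-like cells 6.

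Rspo3 was a gene of the fibroblast-like cells, at 16.2, 38.6, 18.9 and 31.9 CPM, which held 83.7% of its 808 UMIs. Endothelial-like cells had 10.7 CPM from 6 UMIs and stromal-like cells 9.02 ± 4.60 CPM. No Rspo3 UMI was found in RT-like, SV Sertoli-like or other Sertoli-like cells of any library. Rspo2 was found almost wholly in germ-like cells, with 218 of its 231 UMIs (94.4%). Within them it sat in 1 cluster of 724 cells, led by Sall4, Lin28a, Zbtb16 and Nanos3, genes known from undifferentiated spermatogonia. Rspo2 there was 21.97, 23.2, 25.6 and 25.4 CPM, a narrow range over both genotypes. In the other 4 germ-like clusters its mean was 0.213 to 0.518 CPM. An unnamed cluster with a median of 33.7% mitochondrial UMIs, whose best marker score was germ-like, carried 6.46 CPM. Rspo1 was 5.89 CPM, from 47 UMIs, in the cluster of 724 cells and 5.25 CPM, from 16 UMIs, in the unnamed one. Rspo4, the R-spondin outside the 10 genes, was likewise highest in germ-like cells, at 19.9 ± 4.92 CPM.

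On the receiving side, Lgr4 was found in 10 of the 12 classes and was highest in RT-like cells, at 102.1 and 102.1 CPM in the control and 99.3 and 45.3 CPM in the Sox17-cKO libraries. SV Sertoli-like cells carried 41.0 ± 8.62 CPM and other Sertoli-like cells 29.6 ± 7.11 CPM, and each range overlapped that of the class above it. Endothelial-like and mesothelial-like cells had no Lgr4 UMI. Lgr5 was scarce, with 45 UMIs in named classes, and its highest mean was 3.02 CPM, from 7 UMIs in SV Sertoli-like cells. Lgr6, the third receptor, reached 22.4 ± 16.9 CPM in pericyte-like cells and had no UMI in SV Sertoli-like cells. Fzd1 was 62.2 CPM in mesothelial-like cells, from 11 UMIs. It was otherwise highest in the cells around the tubule, with 47.6 ± 3.87 CPM in peritubular myoid-like and 35.6 ± 6.23 CPM in fibroblast-like cells, and was 8.69, 9.43 and 5.39 CPM in RT-like, SV Sertoli-like and other Sertoli-like cells. The epithelial classes carried other Frizzled genes. Fzd3 was 151 ± 31.7 CPM in RT-like and 103 ± 8.56 CPM in SV Sertoli-like cells. Znrf3 was spread over all 12 classes, from 5.45 CPM in macrophage-like to 29.3 CPM in RT-like cells, and neighbours in that order overlapped throughout. Its partner Rnf43, a ligase of the same family, was 10.3 ± 5.04 CPM in RT-like cells and had no UMI in SV Sertoli-like cells.

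Across the 76 genes of a wider Wnt list, 42 reached a mean of 5 CPM in RT-like, 30 in SV Sertoli-like, 31 in other Sertoli-like and 44 in fibroblast-like cells. Of the 19 Wnt ligands, 13 reached it in none of the 11 classes of over 50 cells. In these 11 classes, Wls, which carries Wnt proteins to the cell surface, was highest in RT-like and fibroblast-like cells, at 145.6 ± 22.9 and 145.2 ± 5.67 CPM. Among secreted inhibitors, Sfrp1 stood at 1052 ± 198 CPM in fibroblast-like cells. The co-receptor Ryk was 178.5 ± 22.6 CPM and the kinase gene Csnk1a1 454 ± 35.1 CPM in RT-like cells. Ctnnb1, which encodes beta-catenin, was highest in endothelial-like cells at 635.5 ± 223.5 CPM.

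Over the 48 sums of class and library, the genes most like each ligand or R-spondin were ranked by Pearson's r of log2(CPM + 1) among 14550 genes. The sums share libraries and the mesothelial-like sums rest on 2 to 9 cells, so r is a description. For Rspo1 they were Fras1 (r = 0.89), Col6a6 (0.84) and the mesothelial marker Upk3b (0.84), each highest in mesothelial-like cells. For Rspo3 they were Vash2 (0.77), Clec3b (0.75) and Gdf10 (0.74). For Wnt4 they were Larp6 (0.78), Cacna2d1 (0.76) and Sfrp1 (0.75). For Wnt5a they were Col4a6 (0.85), Efnb1 (0.84) and Pkdcc (0.84).

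SV Sertoli-like cells differed from other Sertoli-like cells first in Wnt4. Its 4 values were 38.3, 60.2, 209.3 and 79.8 CPM against 1.61, 1.09, 2.62 and 3.64 CPM, with no overlap. Wnt4 met the count filter of this fit through the SV Sertoli-like cells, where it is high, so no size or test of its difference is given. Wnt6 went the other way, at 42.6, 51.2, 34.9 and 40.9 CPM against 123.8, 97.2, 41.8 and 86.9 CPM. It was lower in SV Sertoli-like cells within each of the 4 libraries (log2 difference −1.14 ± 0.15, SE, adjusted p = 5.0e-07, edgeR with the library as a block). Lgr4 was higher by 0.42 ± 0.16 (adjusted p = 0.047), a call that was lost in 10 of 15 alternative analyses. Fzd1 (0.80 ± 0.35, adjusted p = 0.087), Znrf3 (−0.53 ± 0.27, adjusted p = 0.15) and Wnt5a (0.12 ± 0.23, adjusted p = 0.75) did not pass. Rspo1, Rspo2, Rspo3 and Lgr5 had too few UMIs to be tested. So 2 of the 6 tested genes were higher, with Wnt4 counted although it met the filter through that class, and 1 lower. Of all 10522 genes, 15.2% were higher and 13.6% lower (28.8% in all). At an unadjusted p under 0.05 there were 4 of the 6, and 37.5% of all genes.

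Of the rest of the Wnt list, 5 were higher and 5 lower in SV Sertoli-like cells among 29 tested, beside the 15.2% higher and 13.6% lower of all genes. Wls was 79.8, 71.3, 93.8 and 81.8 CPM against 15.3, 12.0, 6.72 and 17.4 CPM (log2 difference 2.60 ± 0.19, adjusted p = 5.9e-12), and Porcn, the acyltransferase that lipidates Wnt proteins, was lower (−1.16 ± 0.33, adjusted p = 0.0074). Fzd3 (0.59 ± 0.12, adjusted p = 0.00025) and the inhibitor Sfrp1 (2.11 ± 0.26, adjusted p = 1.2e-07) were higher. Tcf7l2, a TCF factor, was lower (−0.56 ± 0.14, adjusted p = 0.0017). The inhibitor Dkk3, counted among the 5 lower, had only 5 UMIs in SV Sertoli-like cells and was 7.03 ± 4.57 CPM in other Sertoli-like cells. The SV markers were used to name the cells, and these Wnt genes were kept out of the clustering. However, the study names Wnt4 as a marker of the cluster it took for SV Sertoli cells in these libraries. Part of the SV list comes from that cluster, so the Wnt4 difference is not independent of the naming. The level of fibroblast-like markers was 24.05 to 174 CPM in SV Sertoli-like cells, against 18250 to 35290 CPM in fibroblast-like cells, and its part in the Wnt4 and Sfrp1 values was not tested.

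RT-like cells carried more Lgr4, Wnt5a and Znrf3 than SV Sertoli-like cells and few UMIs of Wnt4 and Wnt6. Lgr4 was higher in RT-like cells in each of the 4 libraries (log2 difference 1.01 ± 0.23, adjusted p = 0.00047, edgeR with the library as a block), as was Wnt5a (1.24 ± 0.29, adjusted p = 0.00082). Znrf3 was 41.6, 19.0, 24.8 and 31.7 CPM against 23.0, 2.23, 13.1 and 12.3 CPM (1.27 ± 0.35, adjusted p = 0.0037). Without the library as a block, Znrf3 did not pass (adjusted p = 0.064). In SV Sertoli-like cells Znrf3 had 40 UMIs and did not meet the count filter of the genotype fit within that class. It met the filter of the present fit mostly through the RT-like cells, so its size and call are to be read with that limit. Of the 7064 genes tested, 24.5% were higher and 22.1% lower (46.6% in all, and 52.4% at an unadjusted p under 0.05). Wnt4 had 2, 4, 1 and 1 UMIs in RT-like cells (1.51 to 7.56 CPM) against 236 UMIs in SV Sertoli-like cells (38.3 to 209.3 CPM). Wnt6 had 2, 0, 2 and 2 UMIs (0 to 8.27 CPM) against 118 (34.9 to 51.2 CPM). The classes did not overlap for either gene, but both met the count filter through the SV Sertoli-like cells, so no size or test of these differences is given. Rspo1 was left out by the count filter. Of the other Wnt list genes, 7 of 17 tested were higher in RT-like cells and 2 lower, some of which met the filter through 1 class. The TCF factor Tcf7l1 was 27.1 ± 5.32 CPM in RT-like and 1.33 ± 1.62 CPM in SV Sertoli-like cells, from 5 UMIs. The inhibitor Frzb, chosen for mention after its values were seen, was near 0 in RT-like cells, with 1 UMI in all, and 47.7 ± 16.7 CPM in SV Sertoli-like cells.

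**Figure D2:**
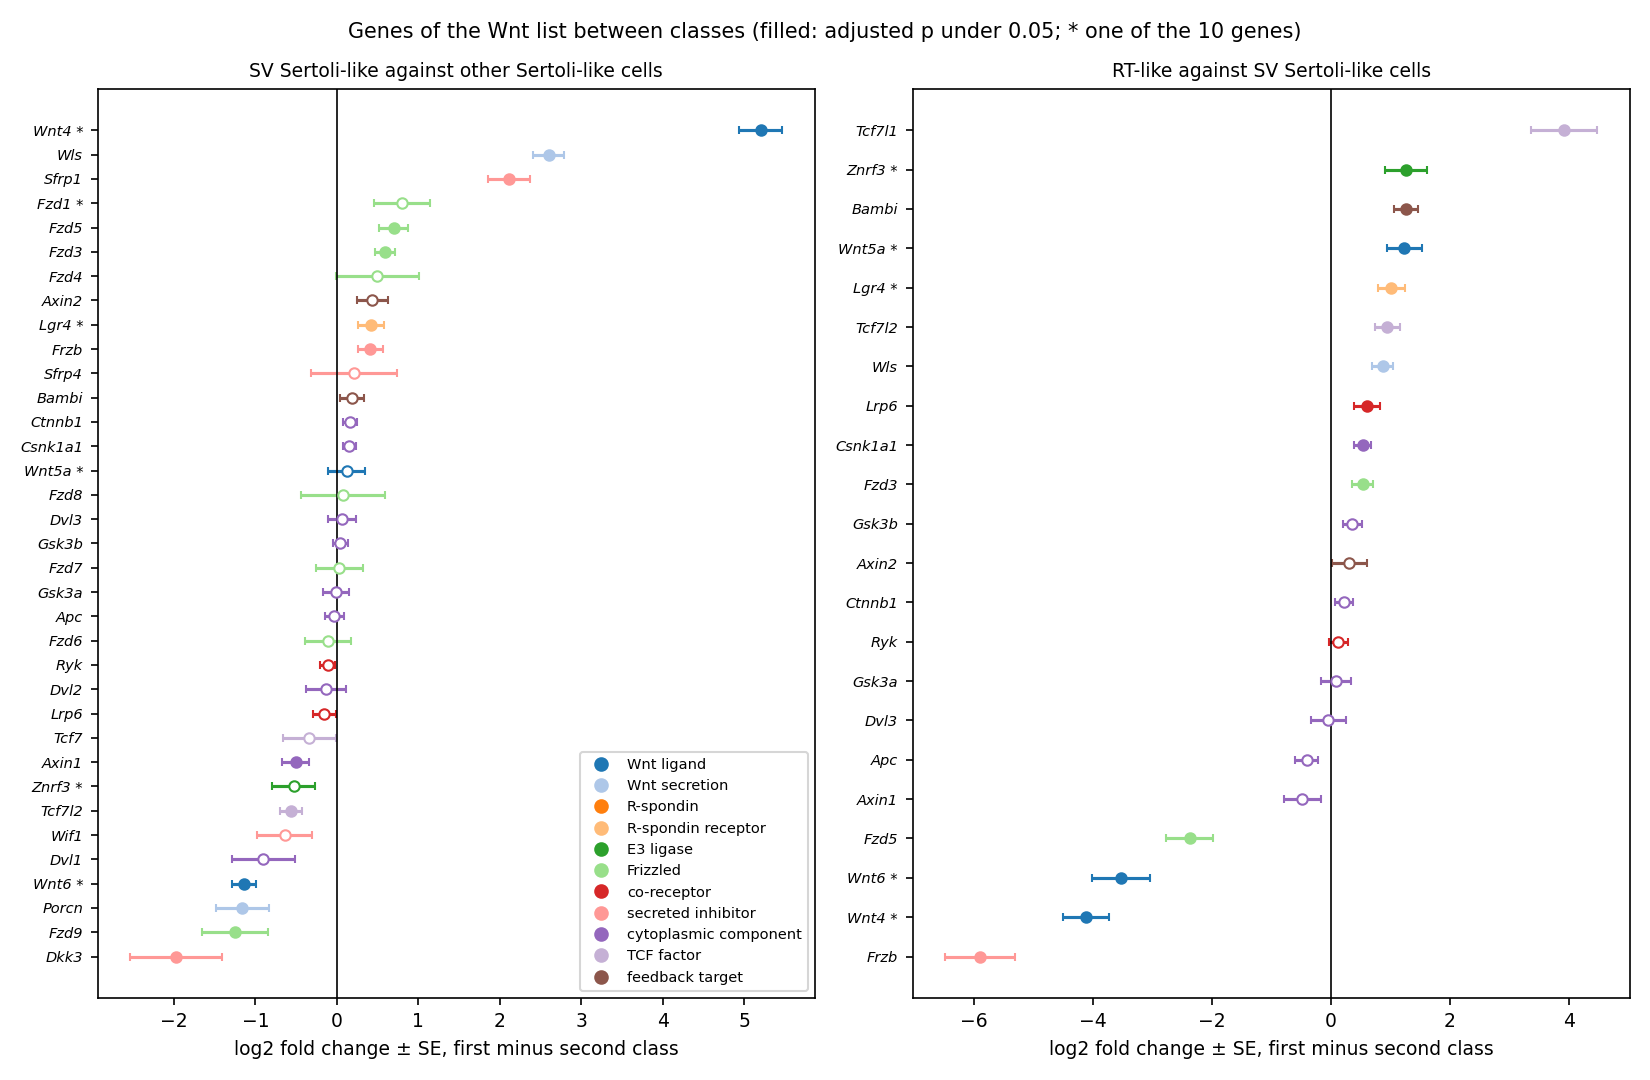
Log2 difference ± SE of each tested gene of the Wnt list, SV Sertoli-like minus other Sertoli-like cells (left) and RT-like minus SV Sertoli-like cells (right), coloured by role, with filled points for an adjusted p under 0.05 and asterisks on the 10 genes. Wnt4 on the left met the count filter through the SV Sertoli-like cells, and its size is not used. The points of Wnt4, Wnt6, Frzb and Tcf7l1 on the right and of Dkk3 on the left rest on at most 8 UMIs in 1 of the classes, and their sizes are not used.

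The deletion was checked first. Sox17 in RT-like cells was 355.5 and 311.6 CPM in the control libraries and 45.5 and 34.7 CPM in the Sox17-cKO libraries (log2 difference −3.14 ± 0.34, adjusted p = 0.015, edgeR). The groups did not overlap, and 20 of the 85 RT-like cells of the second Sox17-cKO library still held a Sox17 UMI. The sources used do not say whether the counted 3′ end lies in the deleted part. Sox17 in endothelial-like cells was 507.7 and 344.1 CPM in the control and 93.35 and 101.0 CPM in the Sox17-cKO libraries, from 8 to 26 cells each, and was not tested.

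Rspo1 fell in RT-like cells of the Sox17-cKO testis. Its UMIs were 35 and 60 in the control and 4 and 4 in the Sox17-cKO libraries, which is 132.4 and 103.9 against 16.5 and 6.04 CPM. Both control values stood above both Sox17-cKO values, and the mean was 118 CPM against 11.3 CPM. The log2 difference was −3.66 ± 0.51 (SE, adjusted p = 0.044, edgeR). Rspo1 met the count filter through the control libraries. Without that filter the difference and its SE were nearly the same (−3.67 ± 0.53). It was 1 of 9 genes past the threshold among 6787 tested (0.133%), of which 8 were lower (0.118%). At least 1 Rspo1 UMI was found in 20 of 36 and 28 of 73 control cells, which is 55.6% (95% exact Clopper-Pearson interval 38.1 to 72.1) and 38.4% (27.2 to 50.5). In the Sox17-cKO libraries it was found in 4 of 33 cells (12.1%, interval 3.403 to 28.2) and in 4 of 85 (4.71%, interval 1.30 to 11.6). With each cell thinned to 2500 UMIs, which left out 2, 5, 6 and 9 cells, the shares were 23.5%, 17.6%, 7.41% and 2.63%. Intervals cover counting error only. Macrophage-like cells, which should lack Rspo1, had it in 1 of 297 cells. The median depth was 6543 to 7889 UMIs per RT-like cell and 4744 to 8278 per macrophage-like cell.

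The adjusted p of Rspo1 was close to the threshold. It was 0.058 without control replicate 1, 0.073 with the highest doublet scores removed and 0.53 without integration, where the RT-like cluster took in the 17 mesothelial-like cells. The 15 alternative log2 differences ran from −4.38 to −2.004. Markers of other classes were summed in RT-like cells. The 5 mesothelial markers were at 26.5 and 22.5 CPM in the control and 37.2 and 36.2 CPM in the Sox17-cKO libraries, with Msln at 0 in all 4. The 7 fibroblast markers summed to 49.2 and 161 CPM in the control and 103 and 119 CPM in the Sox17-cKO libraries, with Dpt at 0. The 13 Sertoli markers summed to 2318 and 1735 CPM in the control and 2346 and 2416 CPM in the Sox17-cKO libraries, with Amh at 0, and the 15 SV markers to 1191 and 1279 CPM against 1311 and 1459 CPM, with Cyp26a1 at 0. The 7 stromal markers, none of them at 0, were higher in the Sox17-cKO libraries, at 276 and 258 CPM in the control and 410 and 461 CPM in the Sox17-cKO libraries. The 6 endothelial markers, none of them at 0, were lower in the Sox17-cKO libraries, at 533 and 505.5 CPM in the control and 381 and 303.5 CPM in the Sox17-cKO libraries, against 5684 to 6569 CPM in endothelial-like cells. No Rspo1 UMI was found in the 71 endothelial-like cells, which allows up to 5.77 CPM over the class. Fos in RT-like cells was also lower in the Sox17-cKO libraries, at 5832 and 4195 CPM in the control and 3719 and 3419 CPM in the Sox17-cKO libraries. The part of these markers and of Fos in the Rspo1 value was not tested. The replicate 1 libraries were processed with one Cell Ranger version and the replicate 2 libraries with another, and Rspo1 was lower in the Sox17-cKO library of each pair. Any pairing would give that order, since the groups did not overlap, so it says nothing about the version. With the replicate number as a term in the fit Rspo1 also passed, but that fit called many more genes, as given below. The numbers were not taken to pair the samples. Fewer Rspo1 transcripts per cell and fewer Rspo1 cells cannot be told apart in a sum. The genotypes overlapped in fibroblast-like cells, where Rspo1 was 21.1 and 28.2 CPM in the control and 30.4 and 18.2 CPM in the Sox17-cKO libraries.

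The other tested genes of the 10 did not pass in RT-like cells. Lgr4 was lower in both Sox17-cKO libraries than in both controls, yet 1 of them, at 99.3 CPM, nearly reached the controls (log2 difference −0.65 ± 0.42, adjusted p = 0.997, edgeR). Wnt5a was 49.2 and 50.2 CPM in the control and 29.0 and 48.3 CPM in the Sox17-cKO libraries (−0.31 ± 0.40, adjusted p = 0.997). Znrf3 was 41.6 and 19.0 CPM against 24.8 and 31.7 CPM, groups that overlapped (0.04 ± 0.52, adjusted p = 0.997). Wnt4 had 2 and 4 UMIs in the control and 1 and 1 in the Sox17-cKO libraries, too few to test. Wnt6, Rspo2, Rspo3, Lgr5 and Fzd1 were also left out by the filter. Of the 5 genes with at least 10 UMIs, 3 had groups that did not overlap, and so did 33.7% of all such genes.

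**Figure D3:**
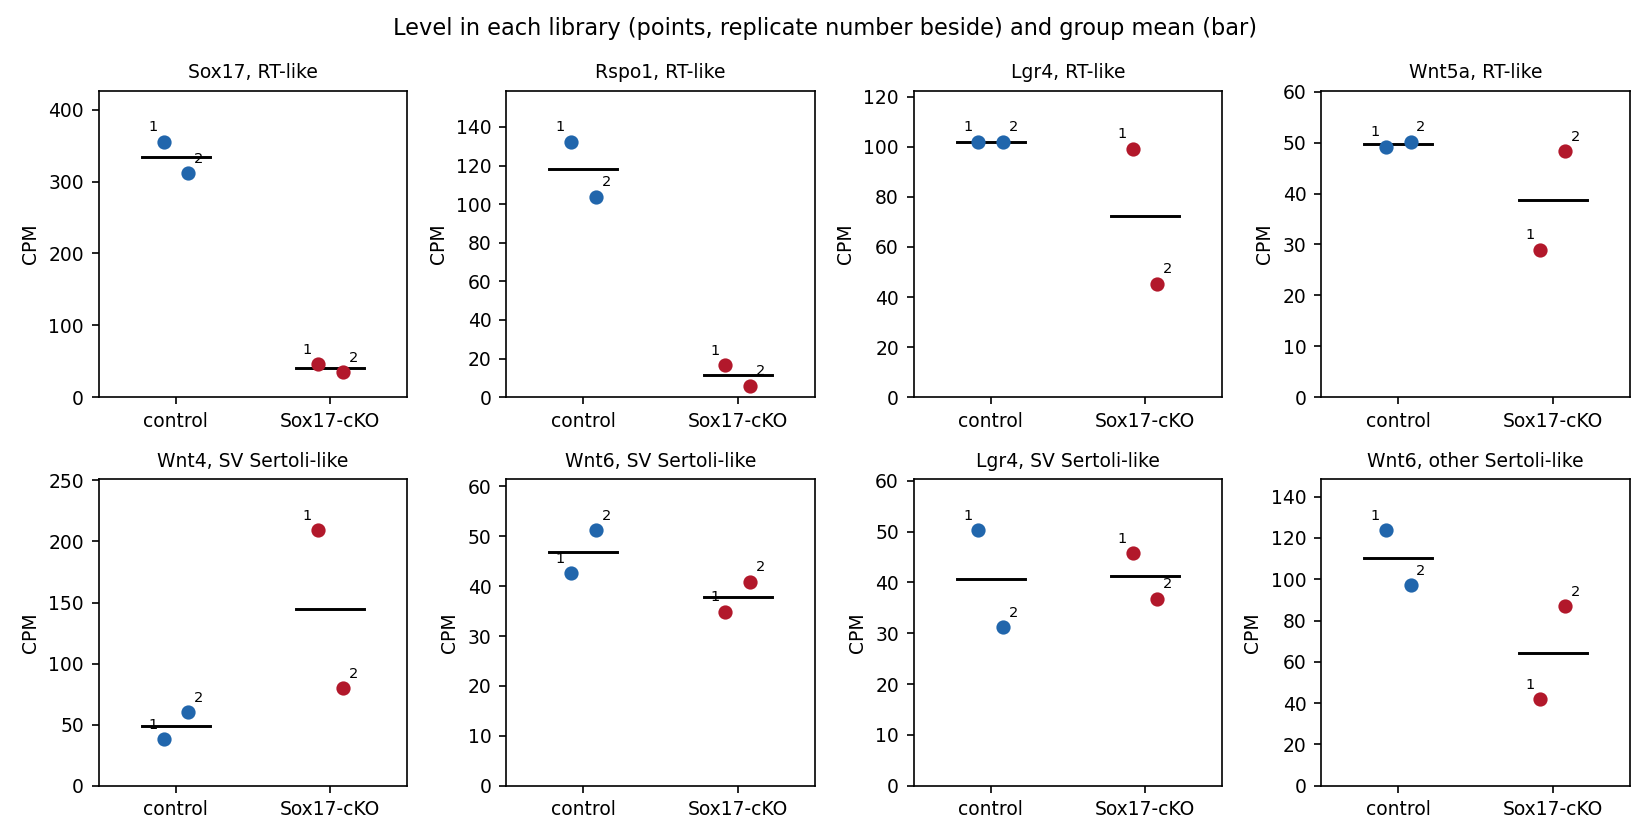
Level in CPM of Sox17 and of the genes named in the genotype comparisons, in each library (points with replicate numbers, blue control, red Sox17-cKO) and as group means (bars). Rspo1 in RT-like cells was 132.4 and 103.9 CPM in the control and 16.5 and 6.04 CPM in the Sox17-cKO libraries, while Wnt4 in SV Sertoli-like cells was 38.3 and 60.2 against 209.3 and 79.8 CPM.

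The 7 genes with the role of feedback target on the list, genes that Wnt signalling is known to turn on, were read beside Rspo1. The ligase genes Znrf3 and Rnf43 stand under another role there and are not among the 7. Both overlapped between the groups in RT-like cells, Rnf43 at 11.3 and 8.66 CPM in the control and 16.5 and 4.53 CPM in the Sox17-cKO libraries. In RT-like cells 6 of them had at least 10 UMIs, and all 6 had groups that did not overlap, as 33.7% of all such genes had. Of the 6, 5 were lower in the Sox17-cKO libraries, and the sixth, Nkd2, was higher, at 7.56 and 6.92 CPM in the control and 8.27 and 9.06 CPM in the Sox17-cKO libraries. Axin2, a scaffold of the complex that destroys beta-catenin, was 60.5 and 50.2 CPM in the control and 24.8 and 30.2 CPM in the Sox17-cKO libraries (log2 difference −0.98 ± 0.40, unadjusted p = 0.039 and adjusted p = 0.80, edgeR). Bambi, a decoy receptor of TGF-beta signalling, was 151 and 177 CPM against 86.9 and 61.9 CPM (−1.23 ± 0.33, unadjusted p = 0.0046 and adjusted p = 0.36). In endothelial-like cells Bambi was 123 and 166.5 CPM in the control and 384 and 370 CPM in the Sox17-cKO libraries. Sp5, a transcription factor chosen for mention after its values were seen, was 60.5 and 27.7 CPM against 16.5 and 13.6 CPM (−1.51 ± 0.58, unadjusted p = 0.029 and adjusted p = 0.76), from 16 and 16 UMIs against 4 and 9. Like Rspo1, Sp5 met the count filter through the control libraries. Nkd1 was 22.7 and 29.4 CPM against 0 and 18.1 CPM and was not tested. Tnfrsf19, also chosen after its values were seen, was 11.3 and 12.1 CPM against 0 and 3.02 CPM. None of the 3 targets that met the count filter passed, and the other 4, Nkd2 among them, were not tested. The inhibitor Dkk3 was 121 and 138.5 CPM in the control and 12.4 and 39.3 CPM in the Sox17-cKO libraries (−2.16 ± 0.44, unadjusted p = 0.00081 and adjusted p = 0.16). Of the 18 tested genes of the Wnt list outside the 10, none passed, and 4 (Axin2, Bambi, Sp5 and Dkk3) had an unadjusted p under 0.05, where 5.78% of all genes tested did. Sp5 and Dkk3 would not have met the count filter by their Sox17-cKO values alone, so that count is not read as a result.

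**Figure D4:**
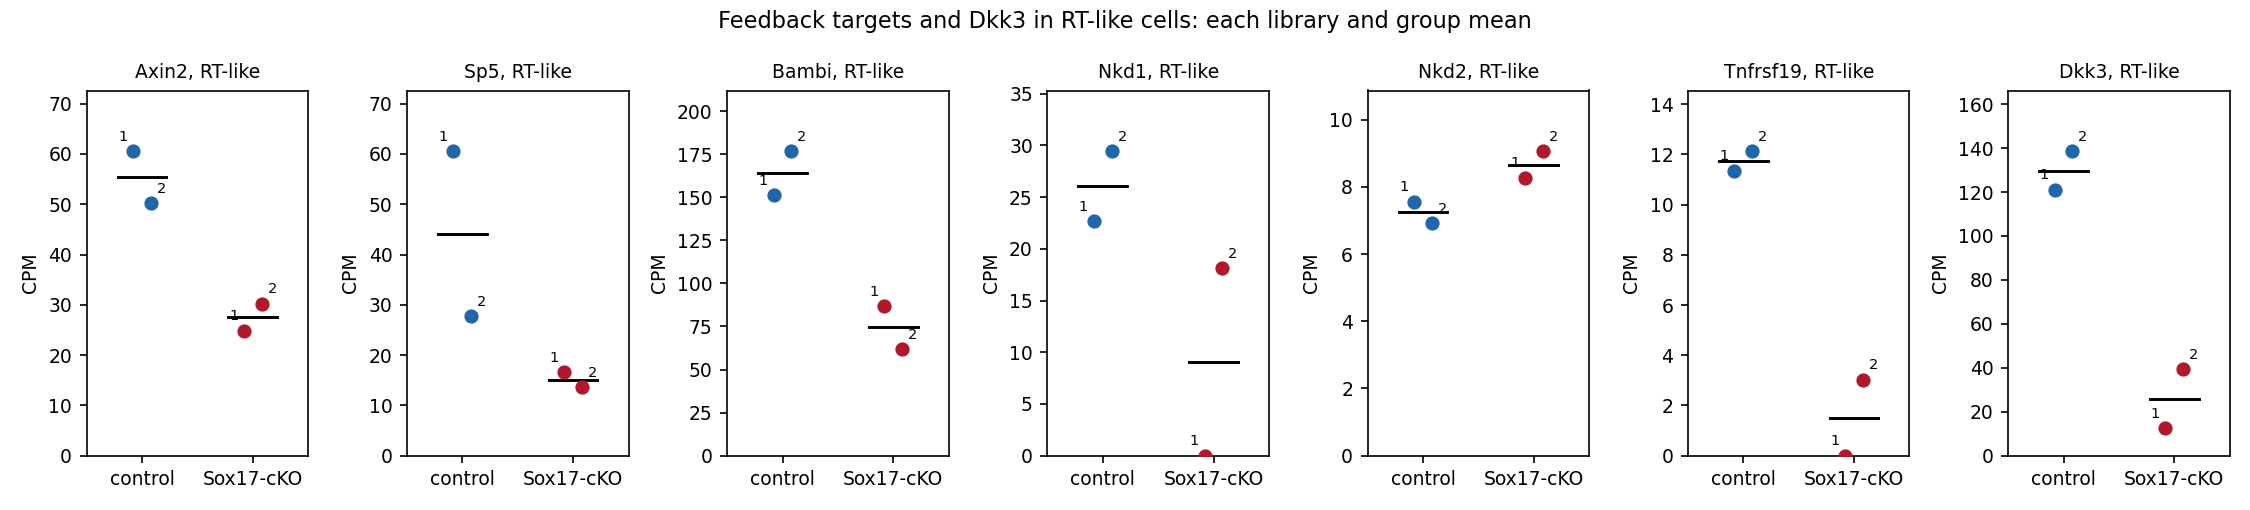
Level in CPM of the 6 feedback targets with at least 10 UMIs and of Dkk3 in RT-like cells, in each library (points, blue control, red Sox17-cKO) and as group means (bars). The control values lay above the Sox17-cKO values in each panel but that of Nkd2, where they lay below. None passed the adjusted test, and Nkd1, Nkd2 and Tnfrsf19 were not tested.

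In SV Sertoli-like cells Wnt4 was higher in both Sox17-cKO libraries than in both controls without passing the test. It had 35 and 27 UMIs in the control and 96 and 78 in the Sox17-cKO libraries, which is 38.3 and 60.2 against 209.3 and 79.8 CPM. One Sox17-cKO library stood far above the other 3. The median mitochondrial share of these cells was also lower in the Sox17-cKO libraries, at 9.54% and 7.52% in the control and 6.77% and 4.34% in the Sox17-cKO libraries, and with only cells below 10% mitochondrial UMIs the log2 difference of Wnt4 was 0.94 (adjusted p = 0.999, edgeR). Markers of other classes were higher in the Sox17-cKO libraries too. The 13 germ cell markers summed to 853 and 637 CPM in the control and 1084 and 939 CPM in the Sox17-cKO libraries, and the 9 RT markers to 92.9 and 80.2 CPM against 139.5 and 103 CPM, with Krt19 at 0. The 6 endothelial and 5 mesothelial markers also did not overlap, at levels up to 19.6 and 6.54 CPM. The part of these markers in the Wnt4 value was not tested. The log2 difference of Wnt4 was 1.496 ± 0.45 (unadjusted p = 0.0045, adjusted p = 0.9996, edgeR), and none of 7534 genes passed (0%), while 108 (1.43%) stood at an unadjusted p under 0.05. DESeq2 called none. Without Sox17-cKO replicate 2 it passed (2.07, adjusted p = 0.019), and without Sox17-cKO replicate 1 it was 0.67. A Wnt4 UMI was found in 14 of 125, 17 of 56, 33 of 60 and 33 of 130 cells, and at 2500 UMIs per cell, which left out 7, 6, 9 and 15 cells, in 4.24%, 26.0%, 33.3% and 8.70%, so that the controls and the Sox17-cKO libraries overlapped in their shares. In macrophage-like cells the share was 0% to 1.90%. Wnt5a (−0.67 ± 0.58), Wnt6 (−0.33 ± 0.38) and Lgr4 (−0.10 ± 0.39) did not pass either, each with an adjusted p of 0.9996. Wnt6 was 42.6 and 51.2 CPM in the control and 34.9 and 40.9 CPM in the Sox17-cKO libraries, without overlap. Of the 6 genes with at least 10 UMIs, 2 had groups that did not overlap, where 25.7% of all such genes did.

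Other Sertoli-like cells gave 6 testable genes and no call among 11789 genes tested (0%), by edgeR or by DESeq2, with 108 genes (0.916%) and 1 of the 6 at an unadjusted p under 0.05. Wnt6 was 123.8 and 97.2 CPM in the control and 41.8 and 86.9 CPM in the Sox17-cKO libraries (log2 difference −0.90 ± 0.36, unadjusted p = 0.038, adjusted p = 0.9999, edgeR). The median mitochondrial share was 12.6% and 11.6% in the control and 9.64% and 7.47% in the Sox17-cKO libraries. With only cells below 10% mitochondrial UMIs the log2 difference of Wnt6 was −1.05 (adjusted p = 1, edgeR). The 13 germ cell markers summed to 811 and 727 CPM in the control and 1091 and 912 CPM in the Sox17-cKO libraries, and their part was not tested. Wnt4 was low throughout, at 1.61 and 1.09 CPM against 2.62 and 3.64 CPM (1.07 ± 0.57, adjusted p = 0.9999). Dkk3 was 2.68 and 3.64 CPM against 9.84 and 11.97 CPM (1.67 ± 0.40, unadjusted p = 0.0027, adjusted p = 0.9999), the opposite direction to RT-like cells. Wnt5a differed by −0.67 ± 0.51, Lgr4 by −0.21 ± 0.31, Fzd1 by −0.07 ± 0.43 and Znrf3 by −0.02 ± 0.29. Wnt4, Wnt6 and Lgr5 had groups that did not overlap, 3 of the 7 genes with at least 10 UMIs, where 24% of all such genes did.

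**Figure D5:**
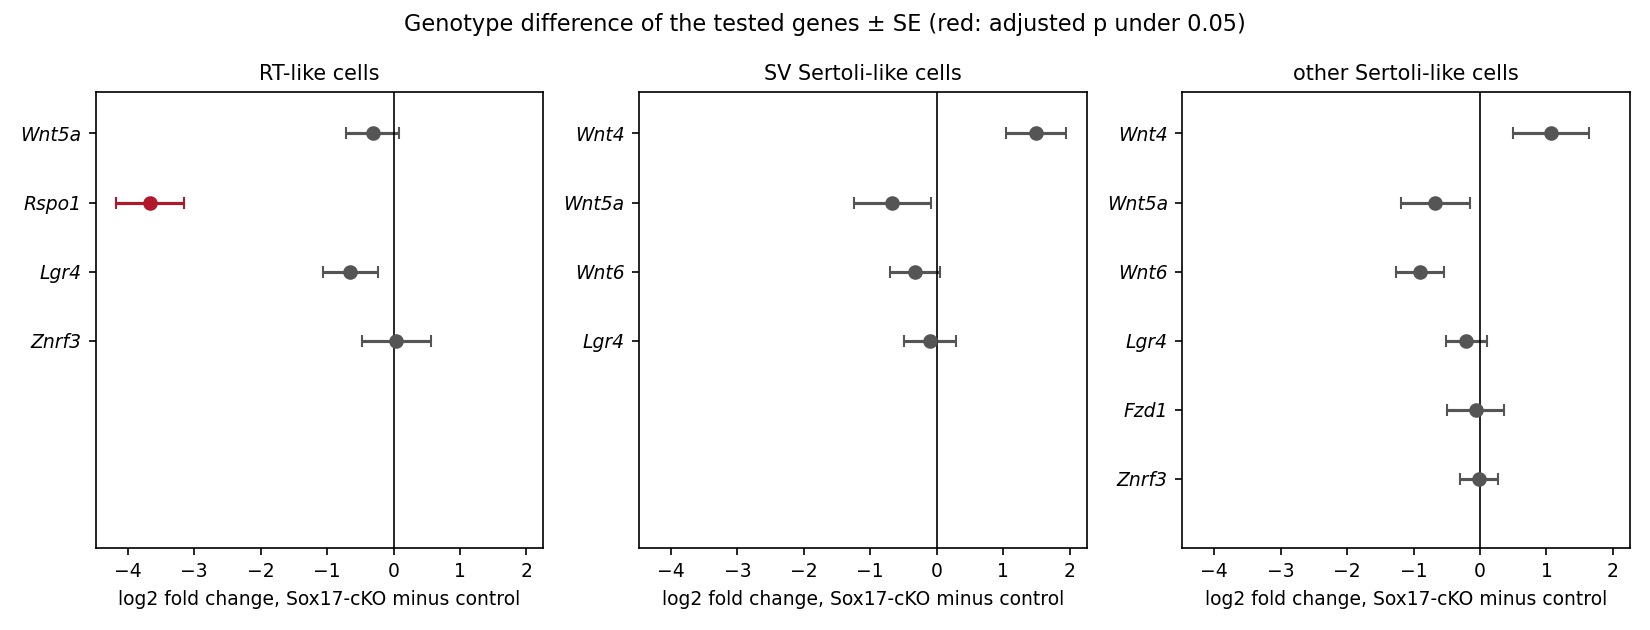
Log2 difference ± SE, Sox17-cKO minus control, of each of the 10 genes that could be tested in RT-like, SV Sertoli-like and other Sertoli-like cells, red for an adjusted p under 0.05. Rspo1 in RT-like cells, at −3.66, was the one that passed.

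The genotype change itself was compared between RT-like and SV Sertoli-like cells. Of 8372 genes, 49 passed (0.585%, of which 0.251% higher and 0.334% lower), and none of the 10 genes was among them. Lgr4 had a difference of changes of −0.66 ± 0.44 (adjusted p = 0.97, edgeR), Wnt5a of 0.30 ± 0.60 and Znrf3 of −0.06 ± 0.78 (both with an adjusted p of 1). None of these 3 had an unadjusted p under 0.05, where 6.27% of all genes did. Wnt4, Wnt6 and Rspo1 met the count filter through 1 of the 2 classes only. Rspo1 had 1, 1, 0 and 0 UMIs in SV Sertoli-like cells, and Wnt4 and Wnt6 had 8 and 6 UMIs in RT-like cells. No size or test is therefore used for Wnt4, Wnt6 and Rspo1. With cells of higher gene counts added, Wnt4 was past the threshold, as it was in none of the other 14 alternatives. Its size there and the call are not used either.

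In the remaining classes no genotype test was made. Wnt4 in fibroblast-like cells was 65.1 and 131.8 CPM in the control and 133.2 and 213.7 CPM in the Sox17-cKO libraries, without overlap. Rspo3 there overlapped between the groups. Wnt5a in peritubular myoid-like cells and Wnt6 in Leydig-like cells overlapped too. In stromal-like cells 4 of 8 genes with at least 10 UMIs had groups that did not overlap (Wnt4, Rspo1, Rspo3 and Fzd1), where 23.9% of all such genes did. In peritubular myoid-like cells it was Lgr4 alone, 1 of 6 (24.4% of all genes), and in fibroblast-like cells Wnt4 alone, 1 of 8 (21.1%). It was 2 of 9 in germ-like (14.5%), 1 of 6 in pericyte-like (27.9%), 1 of 6 in Leydig-like (26.4%), 0 of 2 in macrophage-like (25.7%) and 0 of 3 in mesothelial-like cells (28%). No gene of the 10 reached 10 UMIs in endothelial-like cells (31.1%).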

How the data were processed

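Single-cell suspensions were processed with a 10x 3′ kit (v3 in the labels, v3.1 in the methods). The authors aligned reads to mm10 with Cell Ranger and STAR and deposited raw UMI counts for each library. Per the file headers, Cell Ranger was version 6.0.2 for replicate 1 and 6.1.2 for replicate 2 of both groups, so version and replicate number cannot be told apart. The genes and lists were chosen with earlier results of these data known.

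Cells with 1000 to 4500 genes were kept. The mitochondrial limit of the study was not applied, since almost no cell would pass. Libraries were integrated and clustered in Seurat 5.3.0 (2000 variable genes, 20 components, resolution 0.4), with 77 genes (the Wnt list and Sox17) left out. Scrublet called 0% to 3.18% of barcodes, below the expected 7.51% to 10.7%, so it was judged to have failed and doublets were kept. UMIs were summed per class and library and tested with edgeR 4.0.16 (TMM, filterByExpr, quasi-likelihood F test, two-sided, threshold 0.05). Libraries, not cells, were the replicates, each pooled from 3 pups. Class comparisons had the library as a block. The test was checked on simulated data with known changes. Of 2-fold genotype changes it recovered 13% in RT-like, 18% in SV Sertoli-like and 21% in other Sertoli-like cells. For the difference of genotype changes it recovered 10%. Of 4-fold changes it recovered 71%, 82%, 79% and 57% in the same order. A gene that did not pass a genotype test may therefore still have changed by 2-fold. Alternatives were DESeq2 1.42.0, no count filter, each library left out, the replicate number as a block, other clusterings and other cell filters. High-mitochondrial clusters were kept in a further alternative chosen after seeing the data.

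Besides the 10 genes and Sox17, genes were named where they were among the 3 of each role on the Wnt list with the highest level in a class, passed a genotype test, marked a cell type or were among the 3 most like Rspo1, Rspo3, Wnt4 or Wnt5a. Exceptions are stated.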

Additional observations from a re-analysis of the deposited data

Results flagged for a closer look

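In these results the 2 Sox17-cKO libraries lay on 1 side of the 2 controls in one class and on the other side in another class. The difference between classes was not tested, and groups that did not overlap were found for 14.5% to 33.7% of all genes, depending on the class. Ratios are the mean of the Sox17-cKO libraries over that of the controls, in CPM.

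Wnt4 had a ratio of 2.94 in SV Sertoli-like, 2.32 in other Sertoli-like and 1.76 in fibroblast-like cells, and of 0.837 in stromal-like cells. In SV Sertoli-like cells 1 Sox17-cKO library stood far above the rest, and the log2 difference was 0.67 without it. In other Sertoli-like cells the levels were 1.09 to 3.64 CPM, near the macrophage-like level of 1.51 CPM. Rspo1 had a ratio of 0.0956 in RT-like cells and of 1.65 in stromal-like cells, where it rested on 29 UMIs. Lgr4 had a ratio of 0.708 in RT-like, 1.39 in peritubular myoid-like and 1.63 in pericyte-like cells, the last from 28 UMIs. Lgr5 had a ratio of 0.227 in other Sertoli-like cells, from 12 UMIs, and of 4.29 in germ-like cells, from 15 UMIs.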

How the results depend on the processing

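Each comparison was repeated under 15 alternatives, which gave 476 values for the 10 genes and Sox17. Of these, 28 changed sign, none of them a value that had passed the threshold. In SV against other Sertoli-like cells Wnt6, and Wnt5a and Lgr4 between RT-like and SV Sertoli-like cells, passed in all 15. For Wnt5a and Lgr4 the fit with high-mitochondrial clusters kept repeats the main one, since neither class changed. The test of Wnt4 between SV and other Sertoli-like cells is not used, as stated above, and its alternatives are not counted. At a resolution of 0.8, with the Wnt genes kept in the clustering, and with high-mitochondrial clusters kept, the RT-like cells were the same 227 as in the main set. The RT-like genotype fits of these alternatives repeat the main fit and add no support. Rspo1 in RT-like cells kept its direction in 15, these repeats among them, and passed in 12. It was lost without control replicate 1, without integration and with the highest doublet scores removed, with 0 of the 10 genes past the threshold in each. The cause was not tested.

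In RT-like cells the count of all genes past the threshold was 9. It was 98 without a count filter, 20 with DESeq2, 4 without integration, 16 with only cells below 10% mitochondrial UMIs, 4 with the highest doublet scores removed, 66 with cells of higher gene counts added (a raised upper limit) and 5 to 68 with 1 library left out. In SV Sertoli-like cells it was 0, 1 without a count filter and 0 to 3 with 1 library left out. In other Sertoli-like cells it was 0, 2 without a filter and 0 to 33 with 1 library left out. Of the 10 genes, 0 to 1 passed in RT-like and in SV Sertoli-like cells with 1 library left out. With cells of higher gene counts added, 4647 genes and 6 of the 10 passed between SV and other Sertoli-like cells, Wnt4 among them. In the same alternative 5006 genes passed between RT-like and SV Sertoli-like cells. The share of all tested genes is not given for this alternative, so the 6 is not read as a result about the 10 genes. There, 239 genes and 1 of the 10 (Wnt4, −2.14) passed for the difference of genotype changes. As stated above, that size and call of Wnt4 are not used. The count of all genes past the threshold for the difference of genotype changes was 4 with DESeq2, 32 with the highest doublet scores removed and 12 to 38 with 1 library left out.

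With the replicate number as a replicate block, 224 genes passed in RT-like cells. Same-numbered libraries deviated together (r = 0.357 in RT-like, 0.338 in SV Sertoli-like and 0.496 in other Sertoli-like cells), and each pair shares a Cell Ranger version. The labels name no shared litter or day, so with 2 pairs the numbers were not taken to pair the samples. With no replicate block (library not a term), 1380 genes passed for SV against other Sertoli-like cells, and 0 for the difference of genotype changes.

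The sign changes were all of log2 differences that had not passed. Znrf3 in RT-like cells was −0.064 with DESeq2 and −0.55 to 0.59 with 1 library left out. Lgr4 ran from −0.33 to 0.29 in SV Sertoli-like and from −0.52 to 0.22 in other Sertoli-like cells with 1 library left out, and was 0.42 in the latter below 10% mitochondrial UMIs. In other Sertoli-like cells Fzd1 ran from −0.52 to 0.25 and was 0.0018 without integration. Znrf3 there ran from −0.21 to 0.22, and was 0.018 without integration, 0.75 below 10% mitochondrial UMIs and 0.037 with high-mitochondrial clusters kept. Between SV and other Sertoli-like cells Znrf3 was 0.060 below 10% mitochondrial UMIs and Wnt5a −0.027 with cells of higher gene counts added. For the difference of genotype changes, Znrf3 was 0.0094 without a filter, 0.027 at a resolution of 0.8, 0.41 below 10% mitochondrial UMIs, 0.17 with the highest doublet scores removed, 0.31 with no replicate block and −1.70 to 0.33 with 1 library left out. Rspo1 there was 0.83 without integration and −1.19 to 0.075 with 1 library left out. Wnt6 there was −0.99 with cells of higher gene counts added and −0.63 to 4.86 with 1 library left out. In the main cell set Rspo1 had 2 UMIs in SV Sertoli-like cells and Wnt6 had 6 in RT-like cells. Counts this low cannot fix a size or a sign, so these values of Rspo1 and Wnt6 are not used.

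RT-like sums held 241710 to 662171 UMIs per library, so genes such as Wnt4, Wnt6 and Fzd1 could not be tested there. Leaving out a library leaves 1 sample in a group, which is then assumed to vary like the other group.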
